A study of Mus musculus with 12 samples.

Results

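The genes described here are the 10 mouse histone deacetylases (HDACs) of class I and class II, chosen by name: Hdac1, Hdac2, Hdac3 and Hdac8 of class I, Hdac4, Hdac5, Hdac7 and Hdac9 of class IIa, and Hdac6 and Hdac10 of class IIb. All 10 were among the 21611 genes of the table, and all 10 passed the filter on low values that left 15452 genes for testing. mRNA-seq was done on primary endothelial cells (ECs) cultured from the cortex of wild-type C57BL/6J mice. There were 3 libraries from embryos at E13.5, 3 from adult control mice with no treatment named in the labels, 2 from adult ECs given Wnt3a (200 nM in the labels, but 200 ng/ml in the methods) and 4 from adult ECs given MS-275 (10 µM). Both treatments lasted 2 days according to the methods, and the titles of the inhibitor libraries spell it MS-257. Per the methods, the adults were males, the pial membrane was removed, ECs of a litter were pooled as a biological replicate, and cells were used at the second passage on collagen with their purity stated by CD31 and isolectin B4 staining.

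HDACs remove acetyl groups from lysines. Class I enzymes are mostly nuclear and act on histones: Hdac1 and Hdac2 are the catalytic pair of the Sin3, NuRD and CoREST corepressor complexes, Hdac3 is the enzyme of the NCoR and SMRT complexes, and Hdac8 works outside these complexes and deacetylates the cohesin subunit Smc3. Class IIa enzymes bind MEF2 transcription factors, have little deacetylase activity of their own, and leave the nucleus when kinases phosphorylate them and 14-3-3 proteins bind them. Hdac7 is the class IIa member best known from endothelium, where its loss in mouse embryos leads to vessel rupture. Of class IIb, Hdac6 is a cytoplasmic tubulin deacetylase and Hdac10 is a polyamine deacetylase. MS-275 (entinostat) is a benzamide inhibitor of class I enzymes. The Wnt3a libraries address whether activation of Wnt signalling, and the MS-275 libraries whether inhibition of class I HDACs, changes the expression of adult ECs.

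The libraries held 20804279 to 33149580 reads on genes. Values are normalized counts, which are reads divided by a size factor of the library. Markers of cell types were summed over fixed lists to check the labels. The 15 endothelial markers summed to 287000 to 389300 in adult controls, 244500 to 286700 after Wnt3a and 23220 to 41640 after MS-275, but only 1939 to 2660 in the libraries labelled E13.5. Pecam1, which encodes CD31, had a mean of 71700 in adult controls and 59.45 at E13.5. In the same E13.5 libraries 6 smooth muscle markers summed to 29820 to 48320 (83.28 to 87.75 in adult controls), 10 neuronal markers to 10580 to 13230 (8.675 to 16.27), and 9 of the 10 neural progenitor markers averaged at least 100, among them Sox2, which had no read in any adult library. The level of each HDAC in the libraries labelled E13.5 is therefore given under that label and not as a level of embryonic endothelium, and the part of this cell makeup in the differences from E13.5 was not tested. In bulk RNA, fewer cells of a type and less RNA per cell cannot be told apart.

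Libraries also fell into 2 sets, read from the first principal component of deviations from the group means, which held 45.9% of their variance. Set A holds adult control replicates 1 and 2, Wnt3a replicate 1, MS-275 replicates 1 and 3 and E13.5 replicate 1, and set B holds the rest, the E13.5 libraries having small scores. Within a set the libraries of a group lay close together. The chi-square per gene between the recovered reads of adult control replicates 1 and 2 was 10.36, against 237.9 and 268.1 for the other control pairs. It was 5.02 for E13.5 replicates 2 and 3 (82.42 and 83.46 for the other pairs), and 6.722 and 28.33 for MS-275 replicates 2 and 4 and 1 and 3 (147.5 to 208.8 for the others). No pair agreed within sampling noise, so each library was counted once. The titles number the libraries of a group as biological replicates, 4 of them for MS-275. The methods count 2 replicates for MS-275, whose 4 libraries fall into 2 close pairs. Whether the libraries of a close pair came from separate cultures was not settled by these sources. MS-275 is given here with n = 4, p-values measure only the spread between these libraries, and they would be too small if close pairs were not independent.

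The members lie on 8 chromosomes of mm10, with Hdac7 (chr15:97792664-97844502) and Hdac10 (chr15:89123307-89128700) both on chromosome 15, Hdac6 and Hdac8 both on the X chromosome, Hdac2 at chr10:36974544-37001889 and Hdac9 at chr12:34047580-34917095. How well their reads can be told apart depends on their sequence. Hdac1 and Hdac2 encode closely related proteins, yet the longest run that their longest transcripts share is 17 bases, shown here as the measure of their separation:
Longest run shared by the Hdac1 (chromosome 4) and Hdac2 (chromosome 10) transcripts, GENCODE on mm10: ccagataatatgtctga
No window of 75 bases is shared between them. Hdac1 has another difficulty: of the 1964 windows of 75 bases in its coding transcripts, 1032 (52.5%) also occur in transcripts of other genes, 1005 of them in the processed pseudogene Gm10093 (chr17:78491582-78493025, mm10), with a longest shared run of 450 bases. Gm10093 was not among the genes of the table, and the sources used here do not say how reads with several matches were counted. The level of Hdac1 relative to other genes is uncertain for that reason. Its differences between libraries rest on the same sequence in each, but would include reads of the sharing genes if such reads were counted. That part was not tested. The share was 0.737% for Hdac4, 0.577% for Hdac5 and 0 for the other 7 members. Among counted genes, only Slc48a1 shares exon sequence with a member, in 29 bases opposite to Hdac7.

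Promoter windows from 250 bases before to 50 bases after a gene's start were read for 7 of the 10 members (11 windows, from RefSeq on GRCm38.p6, the assembly also called mm10). Those of Hdac2, which by annotated exon length had the highest mean level per kb, of Hdac7 and Hdac9, the 2 class IIa members that fell after MS-275, and of Hdac5, the class IIa member that rose, are printed. Capitals mark the GC box GGGCGG, the CCAAT box CCAAT and the MEF2 consensus, each on either strand:
Hdac2 promoter, GRCm38.p6, chr10:36974294-36974593, plus strand: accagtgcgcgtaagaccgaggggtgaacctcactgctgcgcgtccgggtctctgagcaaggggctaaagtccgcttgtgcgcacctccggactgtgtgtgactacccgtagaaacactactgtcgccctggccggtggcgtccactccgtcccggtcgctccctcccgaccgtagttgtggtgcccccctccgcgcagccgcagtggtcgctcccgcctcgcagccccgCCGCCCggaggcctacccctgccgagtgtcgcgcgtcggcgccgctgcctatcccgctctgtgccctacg
Hdac7 promoter, GRCm38.p6, chr15:97831446-97831745, minus strand: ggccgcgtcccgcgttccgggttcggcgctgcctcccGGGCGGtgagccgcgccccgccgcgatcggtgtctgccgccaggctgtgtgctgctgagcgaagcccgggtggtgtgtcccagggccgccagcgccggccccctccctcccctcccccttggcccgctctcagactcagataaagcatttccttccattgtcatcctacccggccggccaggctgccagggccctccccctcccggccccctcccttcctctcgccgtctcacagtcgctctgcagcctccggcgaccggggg
Hdac9 promoter, GRCm38.p6, chr12:34528840-34529139, minus strand: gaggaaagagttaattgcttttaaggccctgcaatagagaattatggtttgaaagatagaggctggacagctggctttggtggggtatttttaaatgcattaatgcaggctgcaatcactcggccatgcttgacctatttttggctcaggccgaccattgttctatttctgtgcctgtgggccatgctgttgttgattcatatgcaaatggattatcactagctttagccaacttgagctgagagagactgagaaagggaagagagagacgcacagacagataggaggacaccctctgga
Hdac5 promoter, GRCm38.p6, chr11:102230123-102230422, minus strand: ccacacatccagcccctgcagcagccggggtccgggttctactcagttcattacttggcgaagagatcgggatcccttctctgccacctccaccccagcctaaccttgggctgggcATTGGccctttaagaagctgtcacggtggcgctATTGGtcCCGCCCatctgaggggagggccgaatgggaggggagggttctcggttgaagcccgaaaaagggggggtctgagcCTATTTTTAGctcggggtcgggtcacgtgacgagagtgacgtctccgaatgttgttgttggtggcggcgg
The windows differ most in CpG content. The Hdac2 window holds 36 CpG dinucleotides, more than 93.8% of the 32851 mouse windows, and the printed Hdac7 window holds 31, while the 2 Hdac9 windows hold 3 and 0 against a median of 7 over all windows. Hdac7 has 3 other windows, with 5, 35 and 6 CpG. A GC box is found in 35.66% and a CCAAT box in 37.41% of all windows. The windows of Hdac4 and Hdac6, not printed, each hold 5 GC boxes and 2 CCAAT boxes. Of the 11 windows only that of Hdac5 matches the MEF2 consensus, with the letters CTATTTTTAG, the reverse complement of CTAAAAATAG. Any match to the consensus occurs in 3.187% of windows, and 11 windows were searched. These exact letters occur in 0.1096%, but they were taken from the Hdac5 match, so that share does not measure how unusual the match is. A match describes the letters alone, and MEF2 binding was not measured.

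To compare members with each other, the normalized count was divided by the length of the union of annotated exons. By this length Hdac2 had the highest level per kb in every group, at 911.8 ± 376.6 (SD, n = 3) in adult controls, 1091 ± 41.2 (n = 3) at E13.5, 1138 ± 381.2 (n = 2) after Wnt3a and 1355 ± 348.4 (n = 4) after MS-275. In adult controls Hdac7 (498.3 ± 96.0) and Hdac1 (454.0 ± 26.4) followed and did not separate, Hdac7 being above Hdac1 in 2 of 3 libraries. Hdac3 came next at 215.0 ± 20.0, below Hdac1 and above Hdac6 in each of the 3 libraries. Hdac6 (129.8 ± 16.8), Hdac4 (115.6 ± 53.9), Hdac8 (92.69 ± 4.81) and Hdac5 (83.82 ± 24.8) formed a run in which no neighbour was above the next in every library. Hdac10 (58.02 ± 10.1) was below Hdac5 in all 3, and Hdac9 was last at 4.266 ± 0.802. The orders among members other than Hdac2 were read with this length alone, in every group. Another length can change the order of neighbours. Hdac1 has 3445 bases in its exon union and 2038 in its longest transcript, and Hdac7 has 6755 and 5179.

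Within class I of adult controls, Hdac2 exceeded Hdac1 by 1.908-fold per kb (1.407 to 2.843 over the 3 libraries), Hdac3 by 4.037-fold (2.835 to 6.978) and Hdac8 by 9.345-fold (6.806 to 15.41), in 3 of 3 libraries each. A two-sided exact sign-flip permutation test over 3 libraries gave p = 0.25 for each, the smallest it can give with n = 3, so these ratios could not pass a threshold of 0.05. The order of Hdac2 and Hdac1 depends on the length used. With the windows that occur in no other gene as the length, which assumes that reads with several matches were dropped, Hdac2 was at 0.5558 of Hdac1 (0.4098 to 0.8279), lower in 3 of 3 libraries, and it stayed above Hdac3 at 2.353-fold and Hdac8 at 4.019-fold. This length counts windows of coding transcripts in place of all annotated exon bases. Hdac2, Hdac3 and Hdac8 have 0 shared windows, so their ratios moved through this change of measure alone. For Hdac1 the loss of its shared windows came on top of it.

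**Figure D1:**
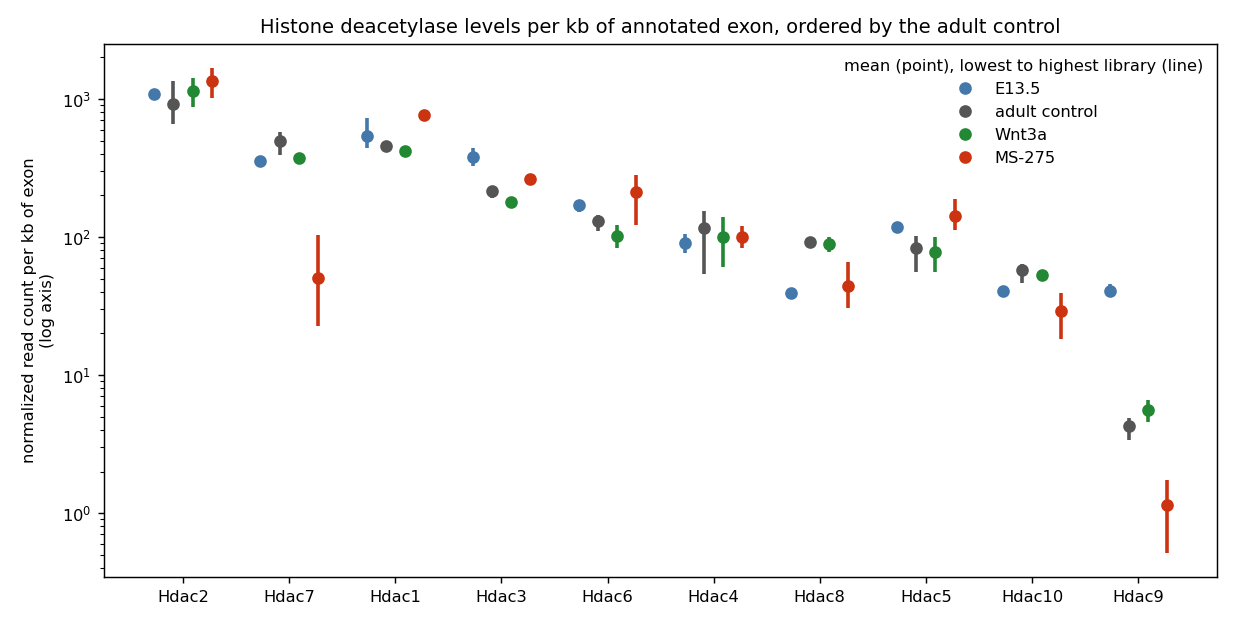
Normalized read count per kb of annotated exon (log axis) for the 10 HDACs, ordered by the adult control, with a point for the mean of a group and a line from its lowest to its highest library. By this length Hdac2 is highest in each of the 4 groups, although its order with Hdac1 turns when windows shared with other genes are left out, and Hdac9 is last in the 3 adult groups, while Hdac7 falls from 498.3 in adult controls to 50.86 after MS-275.

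The order differed between groups mainly at Hdac7, Hdac9 and Hdac8. At E13.5 Hdac9 stood at 40.53 ± 4.45 per kb, beside Hdac10 (40.81 ± 1.74) and Hdac8 (39.53 ± 2.46), and these 3 did not separate in every library. After MS-275 Hdac7 stood seventh at 50.86 ± 36.5, below Hdac4 (100.3 ± 19.3) in 4 of 4 libraries and not separated from Hdac8 (43.98 ± 15.4). Summed per kb, class I made up 71.47% ± 3.09 of the 10 members at E13.5, 64.87% ± 9.69 in adult controls, 71.59% ± 5.75 after Wnt3a and 81.68% ± 2.86 after MS-275. The class I share was 79.11% to 84.4% in the MS-275 libraries and 58.4% to 76.01% in adult controls, without overlap. The class IIa share was 27.74% ± 8.29 in adult controls and 10.28% ± 4.11 after MS-275. These shares inherit the uncertainty of Hdac1 and depend on the length used.

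**Figure D2:**
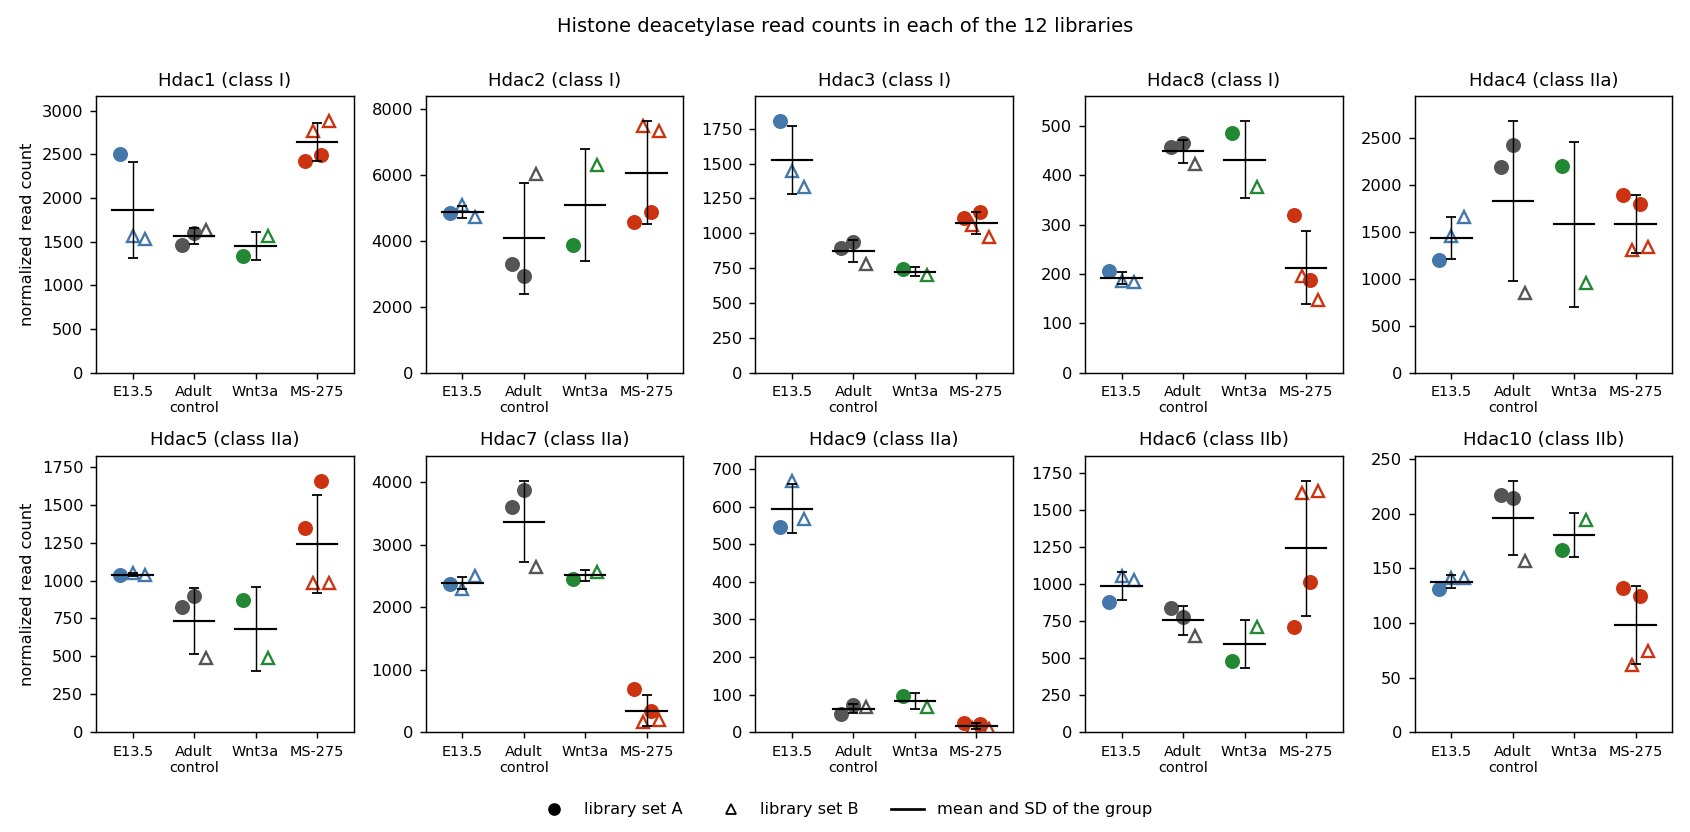
Normalized read count (vertical axis from 0, a different scale in each panel) of the 10 HDACs in the 12 libraries by group, with circles for library set A, triangles for set B, and the mean and SD of each group as lines. Hdac9 is at 545.9 to 668.5 at E13.5 and below 100 in every adult library, and Hdac7 is at 154.1 to 696 after MS-275 and at 2294 or more elsewhere. Hdac2, Hdac4 and Hdac5 split by library set in each adult group, as do Hdac1 and Hdac3 with smaller gaps.

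Between E13.5 and adult control, 1 of the 10 HDACs was higher in adults and 2 were lower, and 7 did not pass the test. Hdac9 and Hdac3 had lower and Hdac8 had higher counts in adults. Across all genes tested, 52.3% passed (19.5% higher, 32.8% lower), so a share of 3 in 10 was below the background. The median log2 difference was −0.28 over the members and −0.20 over all genes tested. Of the genes that passed, 37.3% were higher in adults. This split depends on the scaling: under quantile normalization 55.7% were higher, the median of all genes moved to 0.13, and Hdac10 passed as higher in adults (1.77, adjusted p = 4.74e-04), while Hdac9 and Hdac3 stayed lower.

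Hdac9, a class IIa enzyme known to repress MEF2 in muscle, changed most. Its normalized counts were 545.9, 668.5 and 568.7 at E13.5 and 49.45, 72.18 and 66.06 in adult controls. The groups lay far apart, with the lowest E13.5 library above the highest control by several times. The log2 difference was −3.24 (SE 0.429, limma, adjusted p = 7.11e-05), a 9.445-fold lower level in adults. Hdac3 had 1803, 1447 and 1333 at E13.5 and 897.8, 936.3 and 780.9 in adult controls. Every adult library was below every E13.5 library, at a log2 difference of −0.80 (SE 0.15, limma, adjusted p = 9.10e-04). Hdac8, the remaining class I member to pass, went the other way. It had 205, 184.7 and 184.2 at E13.5 and 458, 465.6 and 422 in adult controls, without overlap and with little spread in either group. The log2 difference was 1.23 (SE 0.26, limma, adjusted p = 0.002125).

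The catalytic pair of class I did not pass. Hdac1 had 2501, 1562 and 1532 at E13.5 and 1460, 1603 and 1629 in adult controls (log2 difference −0.22, adjusted p = 0.3563), and 1 E13.5 library stood above the other 5. Hdac2 had 4829, 5088 and 4731 at E13.5 and 3295, 2930 and 6013 in adult controls (−0.33, adjusted p = 0.3739). The adult libraries lay on both sides of the E13.5 libraries, with the set B library highest. Of class IIa, Hdac5 had 1035, 1049 and 1036 at E13.5 and 823.2, 896.6 and 488.1 in adult controls. The groups did not overlap, but with a log2 difference of −0.55 (SE 0.293, adjusted p = 0.1415) the spread between controls left it short of the threshold. Hdac7 had 2361, 2294 and 2491 at E13.5 and 3594, 3870 and 2634 in adult controls, also without overlap (0.48, adjusted p = 0.3852). For Hdac4 the adult libraries ranged from 851.9 to 2433 and enclosed the E13.5 range of 1204 to 1658 (0.22, adjusted p = 0.6778).

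Of class IIb, Hdac6 ranged from 878 to 1054 at E13.5 and from 647.8 to 838.8 in adult controls (log2 difference −0.39, limma, adjusted p = 0.3043). Hdac10 ranged from 131.1 to 141.3 at E13.5 and from 156.8 to 216.9 in adult controls (0.49, adjusted p = 0.2166). Neither overlapped between the groups. In all, 7 of the 10 members did not overlap, against 61.9% of all genes. With the library set as a block in the fit, Hdac5 passed at −0.73 (adjusted p = 0.006208). The sets were read from the same values, so this p-value is likely too small.

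Wnt3a, a secreted ligand of the canonical Wnt pathway, changed no HDAC past the threshold. Of all genes tested, 0% passed with limma, and 8.48% had an unadjusted p under 0.05, none of them a member. edgeR also called 0 genes, and DESeq2 on the recovered reads called 41, none of them a member. Leaving out adult control replicate 3 raised the limma calls to 1454 genes and leaving out Wnt3a replicate 2 to 237, with 0 members in either case.

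The log2 differences after Wnt3a lay between −0.41 for Hdac7 and 0.38 for Hdac9. Hdac7 had 2448 and 2562 after Wnt3a against 2634 to 3870 in adult controls, and Hdac3 had 746 and 702 against 780.9 to 936.3. These 2 members were the ones without overlap, against 15.9% of all genes. Hdac7 had an SE of 0.489 (adjusted p = 0.8305) and Hdac3 a log2 difference of −0.26 (SE 0.168, adjusted p = 0.6535). Hdac2 had 3884 in the set A and 6296 in the set B library, near the controls of the same set (3295 and 2930, and 6013). Within sets its difference was 0.32 in set A and 0.07 in set B. Hdac4 had 2206 and 961, again near the control libraries of the same set. Its within-set differences were −0.07 and 0.17. Hdac5 also split by set, with 875.2 and 487.1 and within-set differences of 0.027 and −0.003. For these members the gap between sets was larger than that between treatments. Differences of the remaining members lay between −0.36 (Hdac6) and 0.38 (Hdac9), and none of them passed.

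After MS-275, 6 of the 10 HDACs changed against adult control: Hdac1 and Hdac5 rose, and Hdac7, Hdac9, Hdac8 and Hdac10 fell. Hdac7 fell most, by 11.5-fold. Of all genes tested 53% passed (30.3% higher, 22.7% lower), so a count of 6 in 10 was near the background. Direction did not follow class: class I had 1 higher, 1 lower and 2 that did not pass, class IIa had 1, 2 and 1, and class IIb had 0, 1 and 1. The median absolute log2 difference was 0.76 over the members and 0.84 over all genes.

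**Figure D3:**
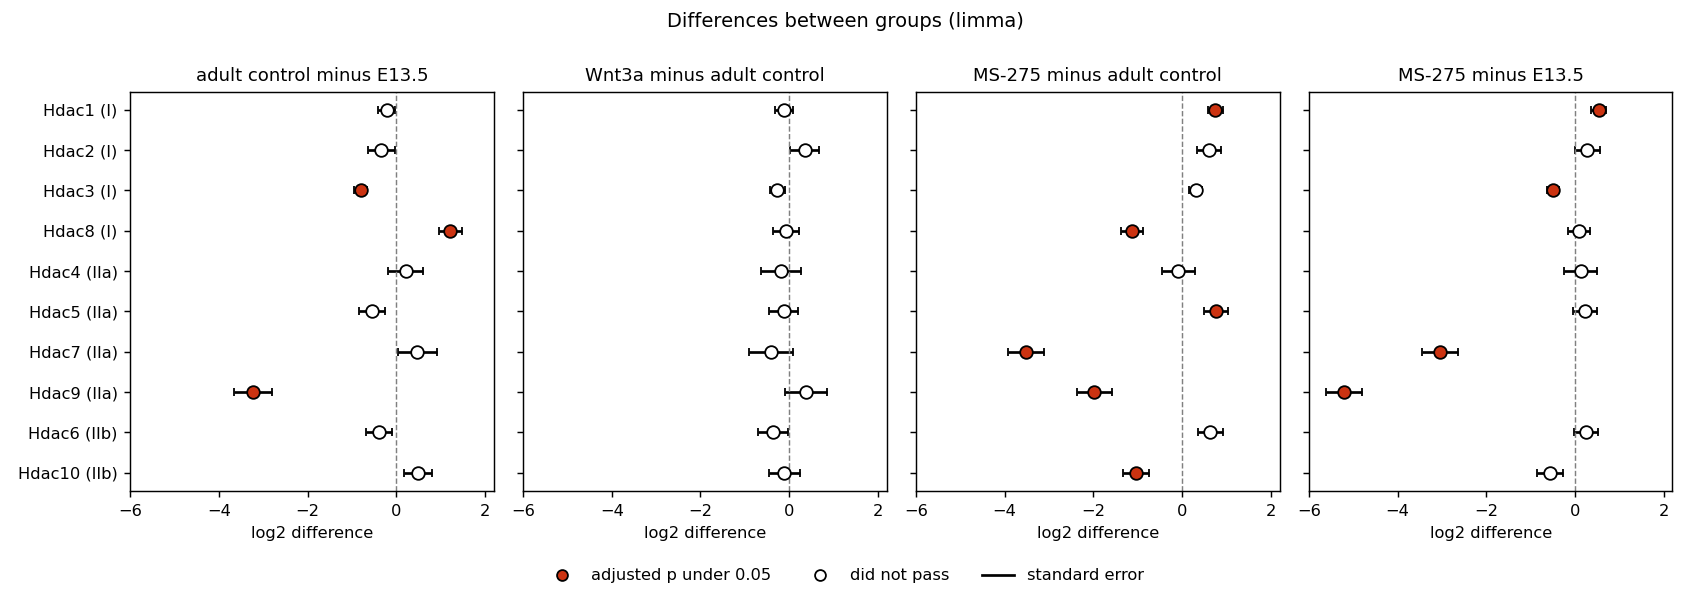
Log2 differences (horizontal axis, points with the standard error) of the 10 HDACs in 4 comparisons, from limma on the log2 of the normalized count plus 1, with filled points where the adjusted p was under 0.05. Hdac9 is at −3.24 in adult control minus E13.5 and at −5.22 in MS-275 minus E13.5, Hdac7 is at −3.52 in MS-275 minus adult control, and no point is filled for Wnt3a.

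Of class I, the targets of MS-275, Hdac1 rose. It had 1460, 1603 and 1629 in adult controls and 2424, 2771, 2491 and 2875 after MS-275. Every treated library was above every control, and the log2 difference was 0.75 (SE 0.174, limma, adjusted p = 0.003841), a 1.685-fold rise. Hdac2 had 3295, 2930 and 6013 in adult controls and 4567, 7470, 4868 and 7345 after MS-275. Its groups overlapped because the set B control lay above the set A treated libraries. The log2 difference was 0.61 (SE 0.278, adjusted p = 0.08616), with 0.60 within set A and 0.30 within set B. When the adult libraries alone were fitted with a term for the set, a fit added after seeing the data, Hdac2 passed at 0.48 (SE 0.104, adjusted p = 0.003533), with 65.8% of all genes passing in that fit. The sets were read from the same values, so p-values of that fit are likely too small. Without adult control replicate 3 Hdac2 also passed, at 0.93 (adjusted p = 0.009099).

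Hdac3 had 897.8, 936.3 and 780.9 in adult controls and 1112, 1063, 1152 and 972.2 after MS-275. The treated libraries were all higher, by a log2 difference of 0.30 (SE 0.14, adjusted p = 0.09008) that did not pass. It passed in the fit of adult libraries with a term for the set, at 0.33 (SE 0.102, adjusted p = 0.02008). That p-value is likely too small, since the sets were read from the same values. Hdac8 fell. It had 458, 465.6 and 422 in adult controls and 319.9, 195.6, 188.1 and 147.7 after MS-275. No library overlapped, and the log2 difference was −1.13 (SE 0.243, limma, adjusted p = 0.002516). The treated range included the E13.5 range of 184.2 to 205.

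Class IIa held the largest changes. Hdac7 had 3594, 3870 and 2634 in adult controls and 696, 154.1, 330.9 and 193.2 after MS-275. The highest treated library was far below the lowest control, and the log2 difference was −3.52 (SE 0.409, limma, adjusted p = 4.46e-05). The fall was −2.96 within set A and −3.93 within set B. Hdac9, already low in adults, had 49.45, 72.18 and 66.06 in adult controls and 25.59, 10.93, 22.71 and 7.576 after MS-275. These treated levels rest on 30, 10, 28 and 6 reads. The log2 difference was −1.98 (SE 0.401, limma, adjusted p = 0.001753), −1.28 within set A and −2.73 within set B.

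Hdac5, which like the other class IIa members binds MEF2, rose in the same libraries. It had 823.2, 896.6 and 488.1 in adult controls and 1347, 982.6, 1657 and 983.6 after MS-275, without overlap. The log2 difference was 0.77 (SE 0.274, limma, adjusted p = 0.03525). This call was lost without adult control replicate 3 (0.50, adjusted p = 0.1329), without MS-275 replicate 1 (0.72, adjusted p = 0.07262) or replicate 3 (0.62, adjusted p = 0.09156), and with edgeR (adjusted p = 0.05533), while the difference was 0.80 within set A and 1.01 within set B. Hdac4 gave no direction. It had 2197, 2433 and 851.9 in adult controls and 1900, 1306, 1795 and 1342 after MS-275 (−0.08, SE 0.374, adjusted p = 0.8726). The difference was −0.32 within set A and 0.64 within set B, where the only control was the lowest of the 12 libraries.

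Of class IIb, Hdac10 fell. It had 216.9, 214.5 and 156.8 in adult controls and 132.2, 61.2, 124.9 and 74.49 after MS-275, with every treated library lower. The log2 difference was −1.05 (SE 0.294, limma, adjusted p = 0.01125). Hdac6 had 838.8, 777.7 and 647.8 in adult controls and 708, 1611, 1011 and 1624 after MS-275. Its difference was 0.64 (SE 0.28, adjusted p = 0.07563), with 0.07 in set A and 1.32 in set B, and the replicate 1 library lay inside the control range. Without MS-275 replicate 1 it passed at 0.88 (adjusted p = 0.008628), and DESeq2 called it too (0.71, adjusted p = 0.03291).

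**Figure D4:**
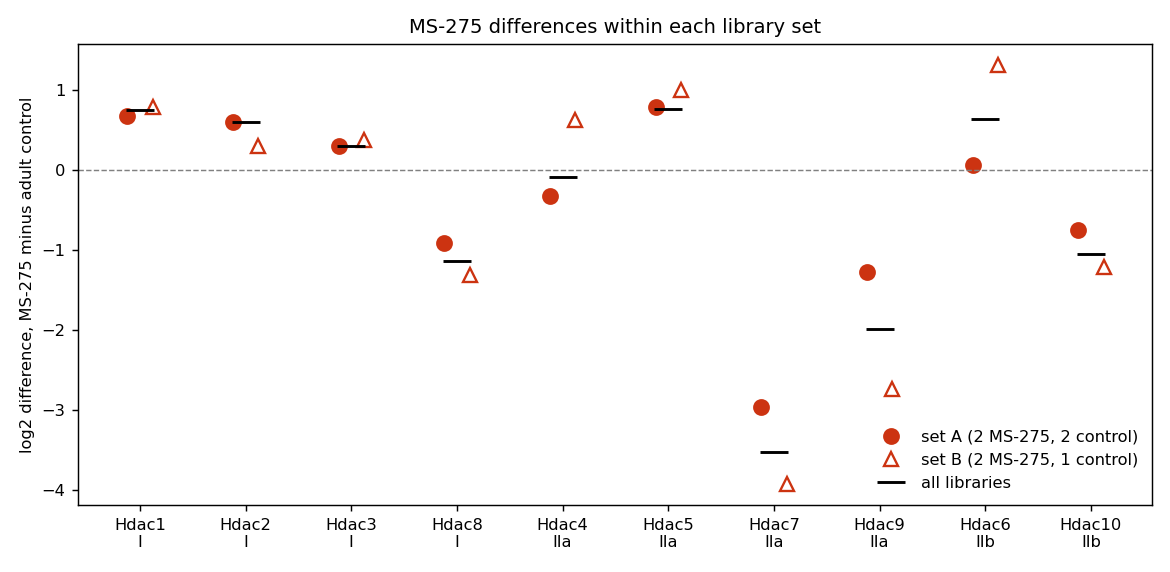
Log2 difference, MS-275 minus adult control, of each HDAC within library set A (circles, 2 treated and 2 control libraries), within set B (triangles, 2 treated and 1 control) and over all libraries (bars). Hdac4 goes from −0.32 in set A to 0.64 in set B, Hdac6 is at 0.07 and 1.32, and Hdac7 and Hdac9 are below 0 in both sets.

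In all, 7 members did not overlap between MS-275 and adult control, against 53.2% of all genes. When the libraries of each close pair were averaged, leaving 8 values in the fit, Hdac7 and Hdac9 were the only members to pass. Hdac1, Hdac5, Hdac8 and Hdac10 then had adjusted p between 0.05077 and 0.1453. Other features of these cultures moved with the treatment. Of 15 endothelial markers 14 fell and 1 rose, and of 15 cell division genes 13 fell and 1 rose. Of the markers of other cells, 6 of smooth muscle summed to 486.2 to 808.8 after MS-275 (83.28 to 87.75 in adult controls), 8 of fibroblasts and meninges to 946.4 to 1327 (209.9 to 333.3), 10 of neurons to 667.9 to 744.3 (8.675 to 16.27), 7 of the oligodendrocyte lineage to 341.4 to 459.7 (154.4 to 272.1), 6 of pericytes to 150.8 to 244.8 (4.337 to 30.56) and 8 of microglia and macrophages to 3225 to 8490 (7598 to 15060). The 6 astrocyte markers summed to 1807 to 2433 (3899 to 5188) and the 10 neural progenitor markers to 48050 to 61170 (110800 to 152900), both lower as sums. Gene by gene, 2 astrocyte markers passed as higher and 1, Gja1 (4703 to 2077), as lower. Likewise 2 neural progenitor markers passed as higher and 1, Vim (121400 to 49150), as lower. For microglia and macrophages, whose sum was lower too, 2 markers passed as higher and 0 as lower. The 5 erythroid markers summed to 251.4 to 386 (12.14 to 17.28). Neurod1, Neurod6 and Dcx of neurons, Olig2 of oligodendrocytes, Lum of fibroblasts and P2ry12 of microglia were at 0 in every MS-275 library, but other markers of these lists rose, among them Snap25 of neurons (from 0.6573 to 148.7), Mbp of oligodendrocytes (1.545 to 9.434) and Col6a1 of fibroblasts (0.6573 to 634.9), as did Notch3 of pericytes (4.93 to 148.4). Gap43 of neurons (7.773 to 2.502) and Col3a1 of fibroblasts (3.885 to 0.4055) passed as lower (limma, adjusted p = 0.04522 and 0.04494). The part of these shifts in the HDAC values was not tested.

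Against E13.5, a comparison that shares its libraries with the 2 above, MS-275-treated adult ECs differed in 4 members. Across all genes tested 63.3% passed (27.2% higher, 36.1% lower). Hdac9 was at 16.7 ± 8.79 (n = 4) after MS-275 and 594.4 ± 65.2 (n = 3) at E13.5, a log2 difference of −5.22 (SE 0.401, limma, adjusted p = 1.09e-06). Hdac7 was at 343.5 ± 246.9 and 2382 ± 99.8 (−3.04, SE 0.409, adjusted p = 6.91e-05). Both class IIa members were thus lower in treated adult ECs than at either stage. Hdac3 was at 1075 ± 77.6 and 1528 ± 245.1 (−0.50, adjusted p = 0.009231). Hdac1 was at 2640 ± 216.8 and 1865 ± 550.7 (0.54, adjusted p = 0.01895), but its libraries overlapped, since the E13.5 replicate 1 library had 2501. Only 3 members did not overlap in this comparison, against 69.9% of all genes. Hdac8, with 212.8 ± 74.4 after MS-275 and 191.3 ± 11.9 at E13.5, did not pass (0.10, SE 0.243, adjusted p = 0.7489). Of all genes that passed 43% were higher after MS-275, and 56.5% were under quantile normalization, where Hdac8 passed (1.12, adjusted p = 0.001333) and Hdac10 turned from −0.56, which had not passed, to 0.79, which passed (adjusted p = 0.02935).

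The partners of class I enzymes were measured as well. Of 29 listed subunits of the Sin3, NuRD, CoREST, NCoR and related complexes 27 were in the table. Between adult control and E13.5, 8 were higher and 5 lower (19.5% and 32.8% of all genes), with a median log2 difference of −0.13 against −0.20 for all genes, and after MS-275 3 were higher and 14 lower than in adult controls (30.3% and 22.7% of all genes), with a median log2 difference of −0.37 against 0.19 for all genes. The NuRD remodeller Chd3 was at 6610 in adult controls and 619.9 after MS-275 (log2 difference −3.41, limma, adjusted p = 8.52e-07). The NuRD subunit Mta3 was at 1810 and 333.5 (−2.45, adjusted p = 1.35e-06). The scaffold Sin3a rose from 2219 to 3124 (0.48, adjusted p = 0.007234), and the CoREST subunit Rcor2 from 15.11 to 67.37 (2.09, adjusted p = 0.0144). At E13.5 Rcor2 was at 313.1, and the CoREST demethylase Kdm1a at 3251 against 1505 in adult controls (−1.11, adjusted p = 1.50e-05). In the other direction, Chd3 was at 2404 at E13.5 and 6610 in adult controls (1.43, limma, adjusted p = 1.93e-04). Mta2 was at 4330 and 7279 (0.74, adjusted p = 0.001138).

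The enzymes that add acetyl groups gave 2 higher and 7 lower of 13 after MS-275 (30.3% and 22.7% of all genes), with a median log2 difference of −0.56 against 0.19 for all genes. The coactivator acetyltransferases Kat2a and Kat2b fell, Kat2a from 2692 to 791.8 (log2 difference −1.75, limma, adjusted p = 8.21e-06) and Kat2b from 805.1 to 92.79 (−3.19, adjusted p = 8.73e-06). Atat1, the tubulin acetyltransferase that opposes Hdac6, rose from 252 to 855.2 (1.61, adjusted p = 0.004644), which was near its E13.5 level of 834.1. Taf1, a subunit of the general factor TFIID, rose from 4039 to 8158 (1.01, adjusted p = 3.63e-04). Of the other deacetylases, the 7 sirtuins of class III and Hdac11 of class IV, only Sirt7 passed, at 1220 after MS-275 and 761.6 in adult controls (0.70, adjusted p = 0.01655). Hdac11 was lower in adult controls than at E13.5 (26.54 and 239.8, adjusted p = 0.04335), but its control libraries ran from 0 to 77.89.

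Of 21 MEF2 factors, class IIa kinases and 14-3-3 proteins, 8 were higher and 3 lower in adult controls than at E13.5 (19.5% and 32.8% of all genes), with a median log2 difference of 0.38 against −0.20 for all genes. After MS-275, 4 were higher and 8 lower than in adult controls (30.3% and 22.7% of all genes), with a median of −0.40 against 0.19. Mef2c, a transcription factor bound by class IIa enzymes, was at 528.7 at E13.5 and 3138 in adult controls (log2 difference 2.52, limma, adjusted p = 1.62e-05). Among kinases that export class IIa enzymes, Prkd1 rose after MS-275 from 173.3 to 846.2 (2.44, adjusted p = 1.16e-04) and Sik2 from 771.7 to 1971 (1.34, adjusted p = 7.04e-05). Prkd2 fell from 2387 to 675.6 (−1.86, adjusted p = 5.44e-04) and Camk2d from 6263 to 1916 (−1.73, adjusted p = 3.29e-05). Of 7 genes known to be controlled by MEF2 or its target Klf2 in endothelium, 1 rose and 1 fell after MS-275 (median log2 difference −0.36, 0.19 for all genes). Nos3, the endothelial nitric oxide synthase, fell from 44430 to 1548 (−4.95, adjusted p = 1.56e-06) and the matrix metalloproteinase gene Mmp10, which Hdac7 is known to repress through MEF2, rose from 17.15 to 80.73 (2.14, adjusted p = 0.02569). Klf2 itself was at 4558 in adult controls and 3585 after MS-275.

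For class IIb, 4 of 11 listed substrates and partners of Hdac6 rose and 2 fell after MS-275, when 30.3% of all genes rose and 22.7% fell. Their median log2 difference was 0.31, against 0.19 for all genes. Its chaperone substrate Hsp90aa1 rose from 14070 to 258200 (log2 difference 4.25, limma, adjusted p = 3.06e-06), while Hsp90ab1, encoding the other cytosolic HSP90, fell from 87080 to 46710 (−0.90, adjusted p = 4.28e-05). The peroxiredoxin gene Prdx1 rose from 17550 to 78880 (2.08, adjusted p = 8.06e-05), and Vcp, whose ATPase binds Hdac6, fell from 20890 to 10240 (−1.02, adjusted p = 3.21e-05). Of 10 genes of polyamine metabolism, the pathway of the Hdac10 substrates, 5 rose and 1 fell, with a median log2 difference of 0.62. Sat1, the enzyme that acetylates spermidine and spermine, rose from 6284 to 46340 (2.88, adjusted p = 3.06e-06), Amd1, which supplies the aminopropyl groups of polyamines, rose from 2341 to 9886 (2.04, adjusted p = 1.77e-05), and the spermidine synthase gene Srm fell from 718.8 to 249.8 (−1.46, adjusted p = 3.98e-04).

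The genes whose levels followed a member most closely were sought by Pearson's r of log2 levels over the 12 libraries, among 11567 genes with a mean of at least 100. These libraries share their groups and sets, so r is a description. Hdac2 was followed by Pnn (0.986), Dpm1 (0.986) and Cops3 (0.983), which encode a splicing-associated protein, a subunit of dolichol-phosphate mannose synthase and a COP9 signalosome subunit. Hdac7 was followed by the interleukin receptor kinase gene Irak1 (0.997), the peptidase gene Npepl1 (0.996) and the Hedgehog transducer gene Smo (0.993). Hdac9 was followed by Timp4 (0.990), an inhibitor of metalloproteinases, by Mbd1 (0.988), which encodes a protein that binds methylated DNA, and by Bcl7a (0.986), which encodes a SWI/SNF subunit. Between members, Hdac7 and Hdac10 had r = 0.898 over the 12 libraries and Hdac1 and Hdac7 −0.85.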

How the data were processed

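mRNA-seq was done in 12 libraries. The deposited values are normalized counts, a signal that the authors made by trimming reads (cutadapt), aligning to mm10 (STAR), counting on protein-coding genes of GENCODE M23 and dividing by DESeq2 size factors. The sources used here give no tool versions and no strand of counting. Of 21638 rows, 26 with date-like names and 1 with a missing value were left out. A factor per library turned 100% of values into whole reads within 0.01 reads. Samples were grouped by their labels. limma 3.58.1 (R 4.3.3, trend and robust options) was run on log2(value + 1) over all libraries with group as its factor, for genes with at least 10 in at least 2 libraries. Adjusted p-values are Benjamini-Hochberg values over 15452 genes, with a threshold of 0.05. Fold changes are on the log2(value + 1) scale and understate changes of low genes such as Hdac9. edgeR 4.0.16 (quasi-likelihood) and DESeq2 1.42.0 were run on the recovered reads. Other alternatives were pseudocounts of 0.5 and 8, other filters, scaling to equal totals, quantile normalization, 2-group fits, blocks for replicate number or library set, averaged close pairs, a fold threshold, other lengths, and each library left out. Exon lengths and windows came from GENCODE M21 on mm10. The fit was tested on simulated data. Members and gene lists were chosen with earlier results of these data known. The genes named are the 10 members, genes among the 2 higher and 2 lower with the smallest adjusted p of a list, and the 3 genes most like Hdac2, Hdac7 and Hdac9. Not all of these were named in every comparison, and other genes were named after their values were seen.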

Additional observations from a re-analysis of the deposited data

How the results depend on the processing

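The members that passed kept their direction in every fit that was run, though several lost the call in some. Hdac7 and Hdac9 after MS-275, and Hdac9 and Hdac8 between stages, passed in all of them. With an absolute log2 difference above 1 required, 2 members passed for MS-275 minus E13.5 in place of 4. That threshold also removed Hdac1 (0.753) and Hdac5 (0.767) for MS-275 minus adult control. For adult control minus E13.5 it removed Hdac3 (−0.801). With close library pairs averaged, 2 passed for MS-275 minus adult control in place of 6 and 2 for MS-275 minus E13.5, a fit with fewer values. In that fit Hdac4 turned to 0.155 for MS-275 minus adult control and to 0.052 for Wnt3a, and Hdac5 to 0.011 for Wnt3a. Hdac4 after MS-275 turned to 0.022 with the set as a block in all libraries and to 0.073 in adult libraries alone, a fit chosen after seeing the data. Hdac10 in MS-275 minus E13.5 turned to 0.789 under quantile normalization. The log2 ratio of Hdac2 over Hdac1 turned from 0.932 to −0.847 with windows of no other gene as length, also chosen after seeing the data. None of these had passed the test before it turned, and of the turned values only that of Hdac10 passed (limma, adjusted p = 0.02935). Other settings raised the counts. For MS-275 minus adult control 8 members passed under quantile normalization and with the set as a block, and 7 with equal totals and with DESeq2. The sets were read from the same values, so p-values with the set as a block are likely too small. For MS-275 minus E13.5 6 members passed under quantile normalization. The cause was not tested.

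With 1 library left out at a time, the members called stayed at 3 for adult control minus E13.5 and 0 for Wnt3a, and ran from 5 to 6 for MS-275 minus adult control and from 3 to 4 for MS-275 minus E13.5, where Hdac1 was lost without E13.5 replicate 2 (0.43, limma, adjusted p = 0.0901) or 3 (0.41, adjusted p = 0.09303). Values that crossed 0 ran for adult control minus E13.5 from −0.339 to 0.014 (Hdac1) and −0.06 to 0.696 (Hdac4). For Wnt3a they ran from −0.229 to 0.002 (Hdac1), −0.252 to 0.117 (Hdac8), −0.786 to 0.412 (Hdac4), −0.546 to 0.298 (Hdac5) and −0.259 to 0.005 (Hdac10). For MS-275 they ran from −0.564 to 0.193 (Hdac4, minus adult control) and −0.119 to 0.251 (Hdac8, minus E13.5).

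Replicate numbers did not pair across groups: deviations of same-numbered libraries correlated between −0.442 and 0.441. With the replicate number as a block, 5 members passed for MS-275 minus adult control, where Hdac10 was lost (−0.94, limma, adjusted p = 0.05534), and 3 for MS-275 minus E13.5, where Hdac1 was lost (0.49, adjusted p = 0.07409). Depth limits Hdac9 most, with 6 to 30 reads in an MS-275 library.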

Other observations

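The partner genes were also counted between MS-275-treated adult ECs and E13.5. Of all genes tested 27.2% were higher and 36.1% lower after MS-275. Of the 27 corepressor subunits 2 were higher and 14 lower. The lower ones included Kdm1a (792 after MS-275, 3251 at E13.5, log2 difference −2.04, limma, adjusted p = 1.04e-07) and the NuRD subunit Mta1 (897.2 and 4091, −2.20, adjusted p = 1.01e-06). The higher ones were Suds3 (4064 and 2045, 0.97, adjusted p = 3.34e-04) and Sin3a (3124 and 1881, 0.72, adjusted p = 4.24e-04). Of the 13 acetyltransferases 1 was higher and 7 lower, and of the 21 MEF2 factors, class IIa kinases and 14-3-3 proteins 6 were higher and 4 lower. Among other deacetylases, Sirt2 (4807 and 2695, 0.83, adjusted p = 0.0012) and Sirt7 (1220 and 612.3, 1.00, adjusted p = 0.001608) were higher and the mitochondrial Sirt3 (164 and 307.8, −0.89, adjusted p = 0.002316) was lower after MS-275. Hdac11 split by library set in adult ECs, with 1.735 and 0 in the set A controls and 77.89 in the set B control.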
